A study of Mus musculus with 5 samples.

Results

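The interleukin-1 family and inflammasome genes described here are 10 genes taken by name from the 21878 genes of the deposited table. They are the ligand genes Il1a, Il1b and Il18, the inhibitor genes Il1rn and Il18bp, the receptor genes Il1r1, Il1rap and Il1r2, and the inflammasome genes Nlrp3 and Casp1. They were measured by RNA-Seq in mouse bone marrow-derived macrophages (BMDMs), which are grown from marrow cells in culture, all treated with lipopolysaccharide (LPS), a component of the bacterial outer membrane. The 2 wild-type samples (Kdm6aF/Y, replicates 1 and 3) carried the floxed allele of Kdm6a, an X-linked gene of a histone H3 demethylase, without Cre. The Kdm6a-deficient group (genotype Kdm6aF/Y;Lyz2-Cre) had 3 samples, replicates 1, 2 and 3, which carried the same floxed allele and a Cre recombinase driven by Lyz2, which is active in myeloid cells. According to the culture methods, the marrow came from male mice aged 10 weeks. The dose and duration of LPS are stated in the methods for LPS-stimulated BMDMs in general and not in the labels of these samples, and no untreated sample was analysed, so the values compare the genotypes under LPS and do not measure induction. RNA samples were pooled, and whether different samples came from different mice is not given in the sources used here, so p-values describe the spread among these 5 samples, which may be technical.

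IL-1α and IL-1β, the products of Il1a and Il1b, are inflammatory cytokines that bind the same receptor, IL-1R1, which signals together with the accessory protein IL-1RAP. The receptor antagonist encoded by Il1rn occupies IL-1R1 without signalling, IL-1R2 captures the ligand as a decoy, and IL-18BP neutralises IL-18. Macrophages make IL-1β and IL-18 as inactive precursors, which caspase-1 (Casp1) cleaves after an inflammasome such as that of NLRP3 has assembled. The values below are of mRNA and say nothing of cleavage or secretion.

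Some facts of the libraries bear on all values. Kdm6a was at 3.72 and 2.91 FPKM (a count of fragments divided by transcript length and by the total mapped in the sample) in wild-type and at 2.81, 1.77 and 2.44 FPKM in Kdm6a-deficient samples, below both wild-type samples in every case but not past the threshold (log2 fold change −0.38, limma adjusted p = 0.268). A value per gene does not set the floxed stretch of the transcript apart from the rest. On the second principal component, which held 32.5% of the variance, Kdm6a-deficient sample 2 stood at −14.54 and the other Kdm6a-deficient samples at 9.22 and 4.31. Wild-type samples 1 and 3 were also split on it, at 7.68 and −6.67. The values of Il18, Il1rap and Nlrp3, which moved most in proportion without Kdm6a-deficient sample 2, are therefore also given without that sample. Markers of macrophages were abundant, with Adgre1 (F4/80) at 736 and 745 FPKM in wild-type samples, and 1 of 8 such markers, Lyz2, which carries the Cre insertion, was called lower (log2 fold change −1.10, limma adjusted p = 0.00722). The adjusted p of Lyz2 was 0.0787 and 0.154 without wild-type samples 1 and 3, 0.0759 without Kdm6a-deficient sample 3 and 0.146 with no filter, and quantile normalization gave −0.71. Under that normalization Cd14 and Cd68 were called higher (adjusted p = 0.0189 and 0.00973). In the main fit Cd68, Cd14 and Mertk were higher at an unadjusted p under 0.05 but missed the threshold (limma adjusted p = 0.0842, 0.131 and 0.243). The median log2 fold change of the 8 macrophage markers was 0.12. Between 10641 and 10769 genes reached 1 FPKM in a sample, and the number of reads per sample is unknown.

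Promoter windows of the Il1a and Il1b start sites held the TATA box motif searched, the exact letters TATAAA. The first window of Il1rn did not hold these exact letters, and looser forms of a TATA box were not searched. These windows are shown because Il1a, Il1b and Il1rn are the members with the largest differences between the genotypes. Each runs from 250 bases before to 50 bases after a start site of the RefSeq annotation (build GRCm38.p6), is written 5′ to 3′ on the strand of the gene, and has matches to the motifs searched in capitals.
Il1a, chr2:129309923-129310222, minus strand: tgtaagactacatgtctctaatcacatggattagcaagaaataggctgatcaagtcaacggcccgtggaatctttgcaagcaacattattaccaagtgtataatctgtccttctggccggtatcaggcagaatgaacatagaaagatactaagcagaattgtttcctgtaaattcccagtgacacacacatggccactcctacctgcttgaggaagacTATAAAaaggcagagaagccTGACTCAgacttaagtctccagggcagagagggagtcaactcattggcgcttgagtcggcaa
Il1b, chr2:129371090-129371389, minus strand: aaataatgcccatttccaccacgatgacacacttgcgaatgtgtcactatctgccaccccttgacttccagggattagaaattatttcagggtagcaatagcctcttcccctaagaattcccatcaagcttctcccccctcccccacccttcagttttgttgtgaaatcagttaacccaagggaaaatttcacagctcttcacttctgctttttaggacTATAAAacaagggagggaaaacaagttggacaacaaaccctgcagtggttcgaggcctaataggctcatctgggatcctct
Il1rn, first of 3 windows, chr2:24336610-24336909, plus strand: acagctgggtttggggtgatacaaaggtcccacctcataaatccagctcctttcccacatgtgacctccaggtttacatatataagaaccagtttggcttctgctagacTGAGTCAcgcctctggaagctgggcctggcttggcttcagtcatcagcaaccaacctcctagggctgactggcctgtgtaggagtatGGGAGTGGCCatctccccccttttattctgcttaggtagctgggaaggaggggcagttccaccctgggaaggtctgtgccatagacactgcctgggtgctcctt
In the Il1a window, TATAAA began 32 bases before the start site and the AP-1 motif TGANTCA began 12 bases before it. In the Il1b window TATAAA began 31 bases before the start site and was the only match. The Il1rn window held TGANTCA 141 bases and an NF-kB motif (GGGA, any 4 bases, CC) 54 bases before the start site. AP-1 and NF-kB are factors that are activated downstream of the LPS receptor, as is known from other work. The C/EBP motif TTNNGCAA and the interferon-response motif (GAAA, any 2 bases, GAAA) were also searched, all on both strands and without overlap between the matches shown.

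Over all 10 members, which have 14 such windows, the NF-kB motif matched in 3 members (Il1rn, Il1rap and Nlrp3), TGANTCA in 2 (Il1a and Il1rn), TTNNGCAA in 2 (Il18bp and Il1r1), the interferon-response motif in 1 (Il1rap) and TATAAA in 4 (Il1a, Il1b, Il18 and the third Il1rn window). The TATAAA match of Il18 lay on the opposite strand, 175 bases before the start site. That of Il1rn lay on the opposite strand too, 14 bases after the start site. Casp1 and Il1r2 had no match. Of all 32851 promoter windows in the RefSeq table, 20.7% held the NF-kB motif, 7.81% TGANTCA, 10.8% TTNNGCAA, 3.44% the interferon-response motif and 13.6% TATAAA. These shares are per window, whereas the counts above are per member, so the 2 are not directly comparable. A match is a run of letters and not a measured site.

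Of the 10 members, 9 passed the filter of 1 FPKM in at least 2 samples and were tested across all genes with limma on log2(FPKM + 1). Il1a, Il1b, Il1rn and Casp1 were called higher in Kdm6a-deficient samples at adjusted p under 0.05, and no member was called lower (1, Il1r1, was lower at an unadjusted p under 0.05). Among all 10893 genes tested, 3.91% were called, 1.73% higher and 2.18% lower. In 6 of the 9 tested members the genotypes did not overlap, 5 of them higher and 1 lower in Kdm6a-deficient samples, against 35.9% of all tested genes (16.7% higher and 19.2% lower). The median log2 fold change was 0.31 over the tested members and 0.0048 over all tested genes. Il1r2 was under the filter and was not tested.

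**Figure D1:**
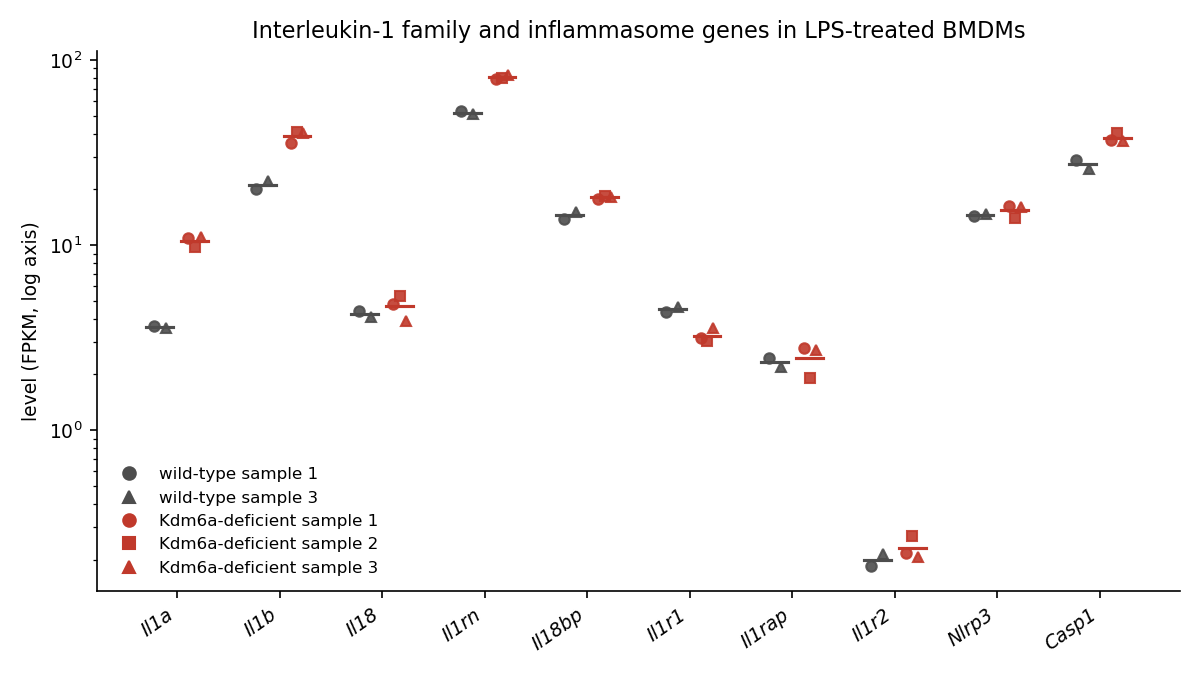
Level of each of the 10 genes in each sample, in FPKM on a log axis, with wild-type samples in grey, Kdm6a-deficient samples in red and a bar at the group mean. Il1rn is the highest gene in every sample and Il1r2, near 0.2 FPKM, the lowest, and the genotypes stand apart for Il1a, Il1b, Il1rn, Il18bp, Casp1 and Il1r1.

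The agonist genes were both higher in Kdm6a-deficient BMDMs. Il1a (GeneID 16175), whose product is active without cleavage by caspase-1, was at 3.66 and 3.56 FPKM in wild-type samples 1 and 3 and at 10.9, 9.74 and 11.0 FPKM in Kdm6a-deficient samples 1, 2 and 3. Each Kdm6a-deficient sample was above both wild-type samples, and the gap between the genotypes was wider than the spread in either. Il1a rose from a wild-type mean of 3.61 ± 0.0762 FPKM (SD, n = 2) to 10.6 ± 0.720 FPKM in Kdm6a-deficient samples (SD, n = 3), the latter 2.93 times the former. Its log2 fold change on the scale of log2(FPKM + 1), which understates the change of low genes, was 1.33 (standard error, SE, 0.0873, limma adjusted p = 0.000746), the 13th highest of all tested genes. The authors' mean normalised counts were 483 in wild-type, where the mean drew on a further sample not analysed here, and 1371 in Kdm6a-deficient samples.

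Il1b (GeneID 16176), the ligand that needs cleavage, was at 20.1 and 22.2 FPKM in wild-type and at 35.5, 40.8 and 40.1 FPKM in Kdm6a-deficient samples. The genotypes did not overlap for this gene either. It rose from a wild-type mean of 21.2 ± 1.48 FPKM (SD, n = 2) to 38.8 ± 2.88 FPKM in Kdm6a-deficient samples (SD, n = 3). Its log2 fold change was 0.85 (SE 0.0884, limma adjusted p = 0.00353). Il1a and Il1b stayed past the threshold under every alternative run, and without any 1 sample their log2 fold changes were 1.30 to 1.38 and 0.78 to 0.91. Il1a and Il1b are neighbours on chromosome 2, with no protein-coding gene between them in RefSeq. Il1a overlaps the lncRNA gene Gm14023 and Il1b the lncRNA gene Il1bos, and as the counting is not stated to use strand, reads from overlapping genes may not be told apart.

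Il18 (GeneID 16173), the third ligand gene and also a precursor cleaved by caspase-1, did not separate the genotypes. It was at 4.40 and 4.11 FPKM in wild-type and at 4.81, 5.33 and 3.89 FPKM in Kdm6a-deficient samples, where sample 2 was the highest and sample 3 the lowest of all 5. The log2 fold change was 0.10, with a 95% interval from −0.18 to 0.39 (limma adjusted p = 0.742). It was 0.021 without Kdm6a-deficient sample 2 and 0.21 without Kdm6a-deficient sample 3. Il18 overlaps the protein-coding genes Bco2 and Tex12, and its reads may be shared with theirs.

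Among the inhibitors, Il1rn (GeneID 16181) was the most abundant member in every sample. Its level was 52.9 and 50.9 FPKM in wild-type and 78.8, 80.0 and 82.7 FPKM in Kdm6a-deficient samples. The genotypes were far apart relative to their spread. Il1rn rose from a wild-type mean of 51.9 ± 1.41 FPKM (SD, n = 2) to 80.5 ± 2.0 FPKM in Kdm6a-deficient samples (SD, n = 3). Its log2 fold change was 0.62 (SE 0.0661, limma adjusted p = 0.00371). Without wild-type sample 3 the log2 fold change was 0.60 and missed the threshold (limma adjusted p = 0.0661). Il1rn lies on chromosome 2 next to the genes of the IL-36 ligands, and 1093 protein-coding genes separate it from Il1a.

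Il18bp (GeneID 16068), which encodes the soluble inhibitor of IL-18, was at 13.9 and 15.2 FPKM in wild-type and at 17.8, 18.5 and 18.2 FPKM in Kdm6a-deficient samples. The 3 Kdm6a-deficient values exceeded both wild-type values. The log2 fold change of 0.31 (SE 0.0747, 95% interval 0.13 to 0.48) missed the threshold (limma adjusted p = 0.0804).

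The receptor genes were low, and none was called higher. Il1r1 (GeneID 16177), the signalling receptor of both agonists, was at 4.37 and 4.65 FPKM in wild-type and at 3.14, 3.05 and 3.55 FPKM in Kdm6a-deficient samples. It was the only tested member with every Kdm6a-deficient sample below both wild-type samples. The means were 4.51 ± 0.20 FPKM (SD, n = 2) and 3.25 ± 0.265 FPKM (SD, n = 3), and the log2 fold change of −0.38 (SE 0.0920, 95% interval −0.59 to −0.16) missed the threshold (limma adjusted p = 0.0796). Il1rap (GeneID 16180), the shared accessory chain, was at 2.46 and 2.21 FPKM in wild-type and at 2.78, 1.91 and 2.72 FPKM in Kdm6a-deficient samples. Its lowest and highest values both lay in Kdm6a-deficient samples, with a log2 fold change of 0.048 (95% interval −0.26 to 0.36, limma adjusted p = 0.899) that was 0.17 without Kdm6a-deficient sample 2. Il1r2 (GeneID 16178), the decoy receptor, was at 0.184 and 0.214 FPKM in wild-type and at 0.218, 0.268 and 0.206 FPKM in Kdm6a-deficient samples. These values overlapped, with means of 0.199 FPKM in wild-type and 0.231 FPKM in Kdm6a-deficient samples. The authors' mean normalised counts went slightly the other way, at 43.7 in wild-type and 42.9 in Kdm6a-deficient samples. That wild-type mean drew on a further sample not analysed here.

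Of the inflammasome genes, Casp1 was called higher and Nlrp3 was not, and the difference between them was not tested. Nlrp3 (GeneID 216799), the sensor, was at 14.3 and 14.8 FPKM in wild-type and at 16.3, 14.0 and 16.1 FPKM in Kdm6a-deficient samples, where sample 2 was below both wild-type samples and the others above. Its log2 fold change was 0.077 (95% interval −0.13 to 0.29, limma adjusted p = 0.737), and it was 0.14 without sample 2 (adjusted p = 0.211). Casp1 (GeneID 12362), the protease, was at 28.9 and 25.8 FPKM in wild-type and at 37.0, 40.4 and 36.6 FPKM in Kdm6a-deficient samples, which did not overlap. It rose from a wild-type mean of 27.4 ± 2.19 FPKM (SD, n = 2) to 38.0 ± 2.07 FPKM in Kdm6a-deficient samples (SD, n = 3). Its log2 fold change was 0.46 (SE 0.0826, limma adjusted p = 0.0290). This call was the least stable of the members called: the adjusted p was 0.0601 without wild-type sample 1, 0.282 without wild-type sample 3, 0.0730 without Kdm6a-deficient sample 1, 0.110 without Kdm6a-deficient sample 3 and 0.0519 with no filter on low values.

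**Figure D2:**
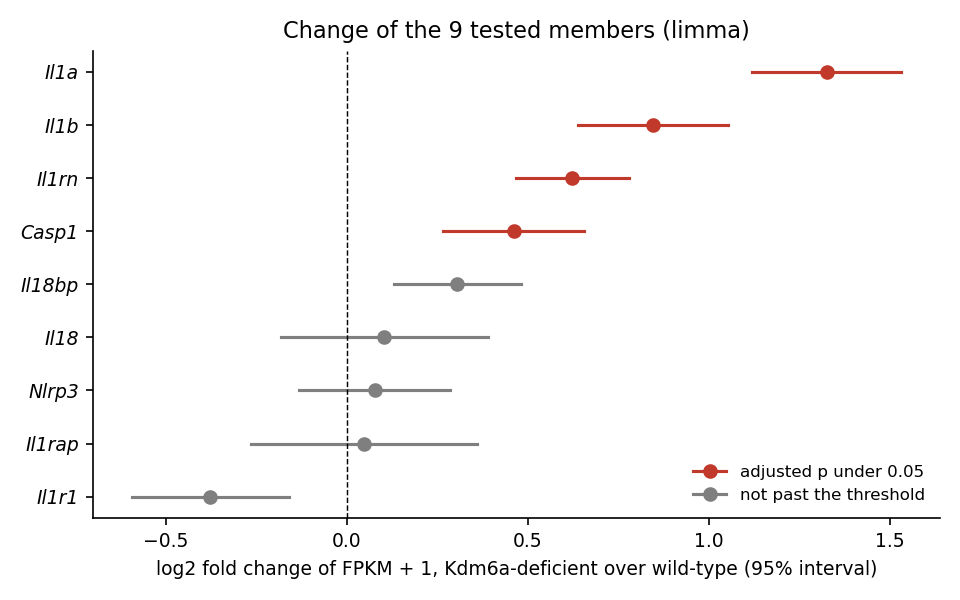
Log2 fold change of FPKM + 1 in Kdm6a-deficient over wild-type samples for the 9 tested genes, with 95% intervals from limma and the genes past adjusted p of 0.05 in red. Il1a is farthest to the right at 1.33, and Il1r1, at −0.38, is the only gene left of 0.

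Some markers of other cells differed between the genotypes. In bulk samples a change in the number of cells of a type and a change in RNA per cell cannot be told apart. For monocytes, 2 of 6 tested markers (Ly6c2 and Plac8) were called higher, with sums of 193 to 200 FPKM in wild-type and 223 to 250 FPKM in Kdm6a-deficient samples. The largest part of these sums came from Chil3, which was not called (limma adjusted p = 0.248). Chil3 was at 137 and 139 FPKM in wild-type and at 147, 168 and 168 FPKM in Kdm6a-deficient samples. The adjusted p of Ly6c2 was 0.0657 with no filter on low values, 0.190 and 0.122 without wild-type samples 1 and 3 and 0.174 without Kdm6a-deficient sample 3. That of Plac8 was 0.0856 with no filter and 0.0528 to 0.273 without each of the 5 samples in turn. For neutrophils, 1 of 13 tested markers (Ctsg) was called higher, Csf3r, Mpo and Prtn3 were also higher at an unadjusted p under 0.05 (Csf3r and Mpo passed without Kdm6a-deficient sample 2, at adjusted p = 0.0399 and 0.0468), and the sums were 2056 to 2174 and 2068 to 2645 FPKM and overlapped. Over all 5 samples S100a8 was at 699 to 888 FPKM, Ngp at 325 to 356 FPKM and Ltf at 73.1 to 83.2 FPKM, while Ly6g was at 0.0731 to 0.199 FPKM. The adjusted p of Ctsg was 0.0705 with no filter, 0.0654 with quantile normalization, under which S100a8 passed (0.0303), and 0.0570 to 0.145 without each of the 5 samples in turn. For dendritic cells, the 1 tested marker, Ccr7, was called higher, with sums of 0.781 to 0.955 and 2.09 to 3.41 FPKM, and Xcr1 and Cd209a were at 0. Ccr7 alone was at 0.202 and 0.338 FPKM in wild-type and at 1.63, 2.99 and 1.73 FPKM in Kdm6a-deficient samples. The other markers of this list were under the filter and overlapped between the genotypes, with Zbtb46 at means of 0.480 FPKM in wild-type and 0.376 FPKM in Kdm6a-deficient samples. Ccr7 missed the threshold when wild-type sample 3 (adjusted p = 0.0558) or Kdm6a-deficient sample 3 (0.0504) was left out. Whether the RNA of these markers came from other cells or from the macrophages themselves was not tested. The part of any such cells in the higher values of Il1a, Il1b, Il1rn and Casp1 was not tested either. Of the remaining marker lists, T or NK cells had 1 tested marker, Cd4, called higher, with sums of 2.26 to 2.37 and 5.30 to 5.44 FPKM. Cd4 alone was at 2.06 and 1.80 FPKM in wild-type and at 4.40, 4.45 and 4.41 FPKM in Kdm6a-deficient samples. The other markers of that list were under the filter, none above the 0.463 FPKM of Ncr1. Among them Cd3g, Cd8a and Klrb1c were higher in every Kdm6a-deficient sample, and the rest overlapped. For mast cells or basophils 0 of 1 and for B cells 0 of 3 tested markers were called by limma, and 0 at an unadjusted p under 0.05.

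The order of the levels, which FPKM allows to be compared per transcript length, was led by Il1rn in both genotypes. In wild-type samples Casp1 and then Il1b followed, with Nlrp3 and Il18bp overlapping below them, then Il1r1 and Il18 overlapping, and Il1a, Il1rap and Il1r2 at the bottom. In Kdm6a-deficient samples Il1b and Casp1 overlapped, and Il1a stood above Il18, Il1r1, Il1rap and Il1r2. The summed level of the 10 members was 145 and 144 FPKM in wild-type and 207, 214 and 215 FPKM in Kdm6a-deficient samples. Il1rn, Il1b and Casp1 supplied 68.9% to 75.3% of it.

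Ratios between members within a sample were compared with exact two-sided permutation tests over the 5 samples, whose smallest possible p is 0.1. The ratio of Il1a to Il1b was 0.182 and 0.160 in wild-type and 0.307, 0.238 and 0.275 in Kdm6a-deficient samples, which did not overlap (difference of log2 ratios 0.67, exact p = 0.1). The antagonist gene stood above its agonist gene in every sample: the ratio of Il1rn to Il1b was 2.63 and 2.29 in wild-type and 2.22, 1.96 and 2.06 in Kdm6a-deficient samples (difference of log2 ratios −0.24, exact p = 0.1). This ratio was lower in each Kdm6a-deficient sample, although wild-type sample 3 and Kdm6a-deficient sample 1 lay close together. The difference was −0.14 without wild-type sample 1, and the exact p was 0.2 with quantile normalization and with a pseudocount of 1 FPKM on both genes. The ratio of Il1r2 to Il1r1 was 0.0422 and 0.0461 in wild-type and 0.0694, 0.0880 and 0.0581 in Kdm6a-deficient samples, which did not overlap but rest on a numerator near 0.2 FPKM (difference of log2 ratios 0.68, exact p = 0.2). The ratio of Il18bp to Il18 was 3.15 and 3.70 in wild-type and 3.69, 3.47 and 4.68 in Kdm6a-deficient samples and overlapped (difference of log2 ratios 0.20, exact p = 0.6). That difference was 0.084 and 0.31 without wild-type samples 1 and 3 and 0.070 without Kdm6a-deficient sample 3. Adjusted over these 4 ratios by Benjamini-Hochberg, the exact p-values were 0.2, 0.2, 0.267 and 0.6 in this order, and the design could not reach 0.05 for any of them.

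**Figure D3:**
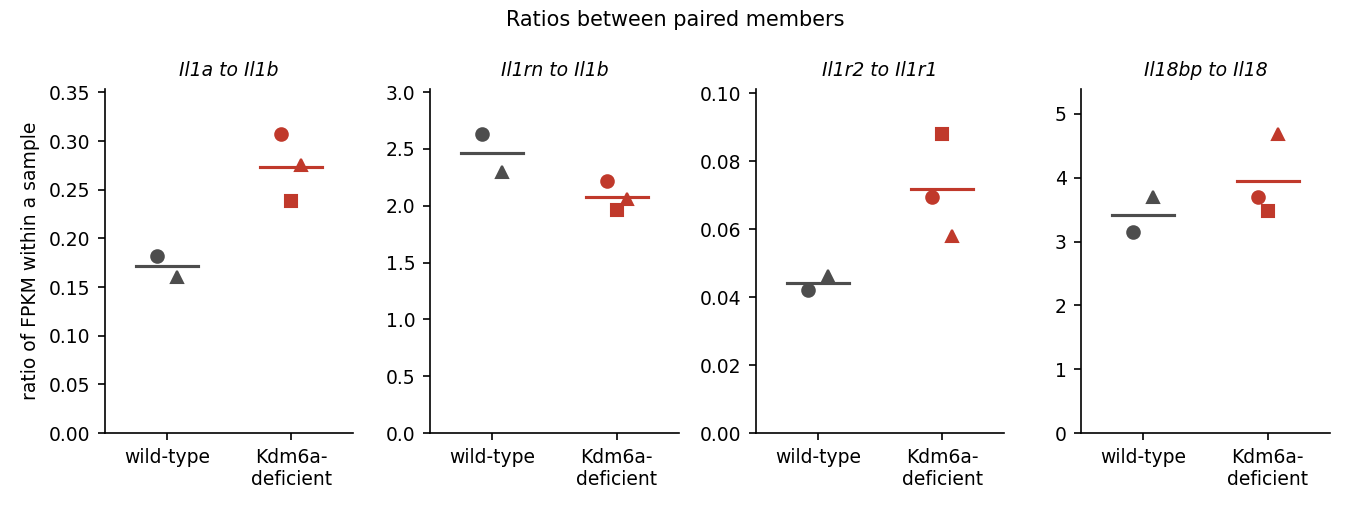
Ratio of the FPKM of a pair of genes within each sample, on linear axes from 0, with circles, squares and triangles for replicates 1, 2 and 3 and a bar at the group mean. The Il1a to Il1b ratio is 0.160 to 0.182 in wild-type and 0.238 to 0.307 in Kdm6a-deficient samples, and the Il18bp to Il18 ratio overlaps between the genotypes.

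Il1r1 and Il1r2 belong to a run of receptor genes on chromosome 1 that holds, in RefSeq order and with no other protein-coding gene between them, Il1r2, Il1r1, Il1rl2, Il1rl1, Il18r1 and Il18rap. Il1rl2 encodes the receptor of IL-36, and Il1rl1 encodes ST2, the receptor of IL-33. Il1rl1 (GeneID 17082) was at 2.77 and 2.67 FPKM in wild-type and at 0.948, 0.880 and 1.13 FPKM in Kdm6a-deficient samples, so the genotypes were apart. It fell by 0.91 on the log2 scale (SE 0.0936, limma adjusted p = 0.00336), stayed past the threshold under each alternative in which it was tested, and was at −1.38 with a pseudocount of 0.1 FPKM. Il1rl2 was at 3.75 and 3.60 FPKM in wild-type and at 2.65, 2.86 and 2.88 FPKM in Kdm6a-deficient samples, also apart, with a log2 fold change of −0.30 that missed the threshold (limma adjusted p = 0.121). Il18r1 and Il18rap were under the filter and overlapped between the genotypes. Of 7 other receptor genes of the family in the table, 2 were tested and 1 of them, Il1rl1, was called lower.

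**Figure D4:**
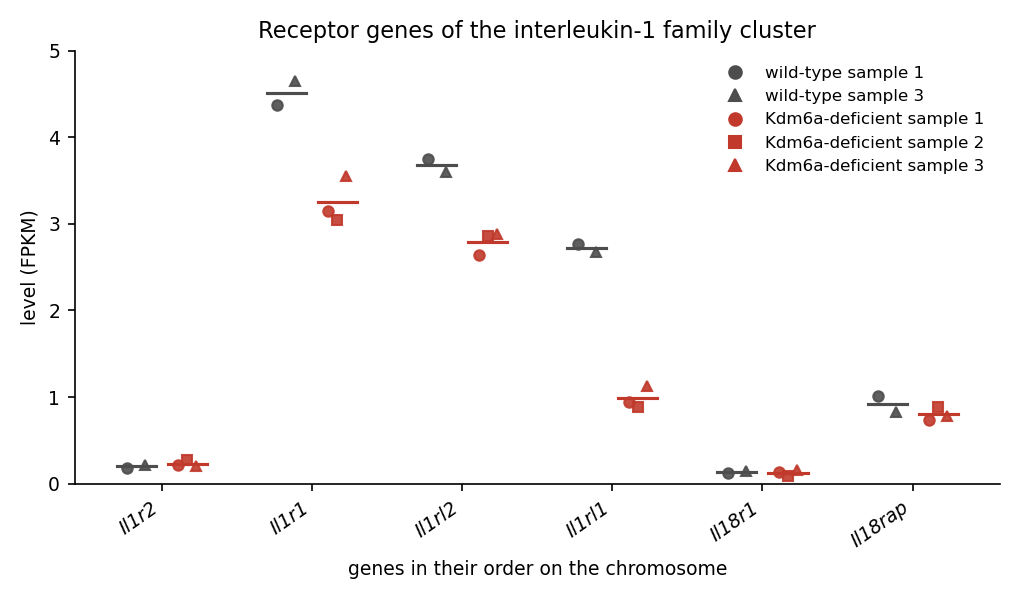
Level in FPKM of the 6 neighbouring receptor genes in chromosomal order, with grey for wild-type samples, red for Kdm6a-deficient samples and a bar at the group mean. The Kdm6a-deficient samples lie below the wild-type samples for Il1r1, Il1rl2 and Il1rl1 and overlap them for Il1r2, Il18r1 and Il18rap.

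Some markers of stromal and endothelial cells were called lower together with Il1rl1. For stromal cells, 4 of 11 tested markers were called lower (Dcn, Lum, Col1a2 and Col1a1) and 1 higher (Cxcl12). The summed level of all 12 listed stromal markers was 3456 to 3660 FPKM in wild-type and 2793 to 2823 FPKM in Kdm6a-deficient samples, with no marker at 0. The largest part of these sums came from Col1a1 and Col1a2. At an unadjusted p under 0.05 in limma, 6 tested markers were lower and 1 higher. Col3a1 and Postn overlapped between the genotypes, and Acta2 was higher in every Kdm6a-deficient sample but not called (limma adjusted p = 0.401). Col1a1 missed the threshold with no filter (adjusted p = 0.0570) and without any 1 sample other than Kdm6a-deficient sample 2 (0.0584 to 0.240). Without wild-type sample 1, wild-type sample 3 or Kdm6a-deficient sample 3, the adjusted p was 0.0702 to 0.208 for Col1a2 and 0.0674 to 0.0974 for Cxcl12. For endothelial cells, 2 of 5 tested markers (Cdh5 and Tie1) were called lower, with sums of 33.7 to 34.3 and 23.5 to 27.2 FPKM, and Pecam1 passed without Kdm6a-deficient sample 2 (adjusted p = 0.0299) and with upper quartile scaling (0.0453). The part of these cells in the lower values of Il1r1, Il1rl2 and Il1rl1 was not tested.

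Among the other ligand genes of the family, only Il1f9, which encodes IL-36γ, passed the filter. It was at 2.65 and 3.20 FPKM in wild-type and at 3.69, 3.76 and 4.25 FPKM in Kdm6a-deficient samples, with a log2 fold change of 0.32 that missed the threshold (limma adjusted p = 0.169). Its genotypes did not overlap. Il1f5, Il1f8 and Il1f10 were listed at 0 in all 5 samples, and Il33 was at most 0.054 FPKM.

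None of the 11 tested inflammasome sensor and adaptor genes was called by limma, with 1 higher and 1 lower at an unadjusted p under 0.05 and a median log2 fold change of 0.062. Pycard, the adaptor ASC that links NLRP3 to caspase-1, was at 20.7 and 19.7 FPKM in wild-type and at 25.2, 31.1 and 27.5 FPKM in Kdm6a-deficient samples. The genotypes were apart, and the log2 fold change of 0.44 lay just outside the threshold (limma adjusted p = 0.0593). It was past the threshold without Kdm6a-deficient sample 2 (0.36, adjusted p = 0.0411) and with upper quartile scaling (0.41, adjusted p = 0.0496). The other genes named by the rule had log2 fold changes of −0.23 for Naip2, a sensor partner of NLRC4, −0.11 for Mefv, which encodes pyrin, and 0.18 for Aim2, a sensor of DNA. The Naip genes are closely related copies, and reads may be split between them.

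Among 13 tested genes of inflammatory caspases, pyroptosis and release, limma called 0, with 1 higher and 1 lower at an unadjusted p under 0.05 and a median log2 fold change of −0.049. Capn1, one of the calpains, which process the IL-1α precursor, was 0.23 apart on the log2 scale (limma adjusted p = 0.186), S100a10 was at −0.29 (adjusted p = 0.191), Casp4, the caspase that senses cytosolic LPS, was at 0.15 (adjusted p = 0.449) and Panx1, a membrane channel, was at −0.12 (adjusted p = 0.534). S100a10, which passed with quantile normalization (−0.37, adjusted p = 0.0131) and when Kdm6a-deficient sample 2 was left out (−0.37, adjusted p = 0.0280), was the only one of this list to pass under an alternative. Gsdmd, the pore former through which IL-1β leaves the cell, is named after its values were seen. It was at 34.5 and 35.8 FPKM in wild-type and at 34.1, 36.7 and 35.5 FPKM in Kdm6a-deficient samples, which overlapped.

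Of 8 tested protease and caspase inhibitors, 1 was called higher and 0 lower (0 lower also at an unadjusted p under 0.05 in limma), with a median log2 fold change of 0.13. Serpinb2, a serine protease inhibitor of activated macrophages, was at 0.998 and 1.05 FPKM in wild-type and at 1.82, 2.35 and 2.09 FPKM in Kdm6a-deficient samples. It rose by 0.61 on the log2 scale (SE 0.101, limma adjusted p = 0.0216), and the adjusted p was 0.0868 and 0.129 without wild-type samples 1 and 3 and 0.104 without Kdm6a-deficient sample 3. A pseudocount of 0.1 FPKM gave 0.95.

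Downstream of the receptor, 20 of 21 signalling genes were tested, and 1 was called higher and 0 lower (3 higher and 0 lower at an unadjusted p under 0.05 in limma), with a median log2 fold change of 0.039. Irak3, which restrains signalling from IL-1 and Toll-like receptors, was at 36.5 and 36.5 FPKM in wild-type and at 50.2, 46.0 and 46.6 FPKM in Kdm6a-deficient samples. Its log2 fold change was 0.37 (SE 0.0705, limma adjusted p = 0.0350). The adjusted p was 0.0730 with quantile normalization, 0.0549 with upper quartile scaling, 0.156 and 0.289 without wild-type samples 1 and 3, and 0.106 and 0.152 without Kdm6a-deficient samples 1 and 3. For Map3k8, a kinase activated by LPS, the log2 fold change was 0.31 (limma adjusted p = 0.102), for Myd88, the adaptor shared by IL-1 and Toll-like receptors, it was 0.23 (adjusted p = 0.267) and for Ikbkg, a subunit of the kinase of the NF-kB inhibitor, it was −0.21 (adjusted p = 0.373).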

How the data were processed

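RNA-Seq of LPS-treated BMDMs was read from 2 wild-type and 3 Kdm6a-deficient samples, grouped by the labels. The authors made the FPKM per gene and sample with TopHat and Cufflinks, as their methods state, and deposited a second kind of value, a signal for each genotype, which is the mean of size-factor-normalised counts from DESeq. These means move in 3 step sizes per genotype, so the wild-type mean drew on 1 further sample that is not analysed here. The deposited fold changes and p-values of the authors' own comparison were not used. Bowtie 0.12.2 and the builds mm8 and mm9 appear in the submitters' processing notes without their roles, and the labels and the methods name different library kits. Coordinates are those of RefSeq on GRCm38.p6 and not of the build of the counts.

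Genes that reached 1 FPKM in 2 or more samples were tested with limma 3.58.1 (R 4.3.3, trend) on log2(FPKM + 1), with all 5 samples in 1 fit, no block, and Benjamini-Hochberg adjustment over 10893 genes. FPKM keep no read depth here, so no counting interval was given. The 27 symbols turned into dates were restored by GeneID. The fit was tested on simulated data. Figures and summaries were made with Python 3.11.15, pandas 2.3.3 and matplotlib 3.10.9. The alternatives tried were no filter, a pseudocount of 0.1 FPKM, a filter on all 5 samples, quantile, median-of-ratios and upper quartile scaling, a replicate block and each sample left out.

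The members, lists and tests were chosen with earlier results of these data known. Named by rule are all 10 members, Kdm6a and Lyz2, and up to 4 tested genes of each other list with the smallest adjusted p. For Il1a and Il1b the 3 tested genes at a mean of 5 FPKM or more whose values correlated best are also named by rule. Further list genes named above fall outside this rule. Among them are Adgre1, S100a8, Ngp, Ltf, Col1a1, Col3a1, Postn, Acta2, Gsdmd and the genes under the filter.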

Additional observations from a re-analysis of the deposited data

How the results depend on the processing

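Across all genes, 188 were higher and 238 lower. With a replicate block 436 were higher and 560 lower, and without any 1 sample 46 to 281 were higher and 35 to 397 lower. Of the members, 2 to 4 were called higher without any 1 sample (2 without wild-type sample 3) and 5 with the block, where Il18bp passed (log2 fold change 0.29, adjusted p = 0.0427 from limma). The replicate numbers are shared by only 2 pairs, and nothing says that they mark shared animals or batches. The deviations of the pairs correlated at 0.27 across genes. Kdm6a-deficient sample 2 has no wild-type partner, so the block gave the log2 fold changes of the fit without it (1.38 for Il1a and 0.29 for Il18bp). In the fit without that sample Il18bp missed the threshold (limma adjusted p = 0.0680). The log2 fold change of Il1rap turned to −0.0065 without wild-type sample 3, −0.018 without Kdm6a-deficient sample 1 and −0.0071 without Kdm6a-deficient sample 3, and was 0.17 without Kdm6a-deficient sample 2. The cause was not tested. No other tested member and none of the 4 ratios changed direction under any alternative run. With 2 wild-type samples and unknown read depth, small differences cannot be detected.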

Other observations

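The genes whose values were most like those of Il1a over the 5 samples, among 7109 tested genes at a mean of 5 FPKM or more, were Mmp12, the macrophage elastase, Lacc1 and Ikzf1, a transcription factor of blood cells. Their Pearson correlations were 0.99934, 0.99929 and 0.99922, and 210 genes were over 0.95. For Il1b they were Id1, an inhibitor of transcription factors, Dpep1 and Mmp3, a matrix protease, at 0.99997, 0.9995 and 0.99882, with 286 genes over 0.95. The 5 points share the split by genotype, so any gene that differs by genotype scores high. Il1f6, the gene of IL-36α, was listed at 0 in both wild-type samples, while the Kdm6a-deficient samples had 0.0576, 0.0546 and 0.118 FPKM. It was under the filter and not tested, and the authors' mean normalised counts were only 0 in wild-type and 1.38 in Kdm6a-deficient samples.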
